A study of Mus musculus with 18 samples.

Results

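The genes described here are 9 proteases of the epidermis and 1 inhibitor, tied to the shedding of corneocytes or to the breakdown of filaggrin. They are Klk5, Klk6, Klk7, Klk8, Klk10, Klk11, St14, Casp14, Asprv1 and Spink5. They were chosen by name, and all 10 had a row among the 55357 genes of the deposited table. Of the 10, 8 passed the filter on low values (at least 10 normalized counts in at least 6 libraries), as did 17667 of all genes. Klk10 and Klk11 were listed at 0 in every library.

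Back skin was taken from 18 FVB mice aged 6 months, and the RNA of each mouse was sequenced as its own library. The 3 groups were 6 wild-type mice (WT), 6 transgenic mice labelled N-IKKα, in which exogenous IKKα was placed in the keratinocyte nucleus, and 6 transgenic mice labelled C-IKKα, in which it was placed in the keratinocyte cytoplasm. The kinase IKKα is the product of Chuk. It acts in NF-kB signalling and has a known part in epidermal differentiation. Which promoter drives each transgene, how many founder lines were used and the sex of the mice are not given in the sources used here. Whole back skin was the tissue, so fewer cells of a type and less RNA per cell cannot be told apart.

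Corneocytes are held together by corneodesmosomes, and desquamation is the ordered cutting of these junctions by kallikrein-related peptidases, serine proteases secreted in the granular layer. KLK5 can activate itself and KLK7, matriptase (St14) acts upstream of the kallikreins, and LEKTI, the product of Spink5, inhibits them until the falling pH of the cornified layer releases them. Asprv1 (SASPase, an aspartic protease) and Casp14 (caspase-14) act beside this cascade on filaggrin, whose breakdown products keep the cornified layer moist.

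Libraries held 11.1 to 15.7 M (megareads) of counted reads, and 1 read was worth 0.816 to 1.20 normalized counts. Keratinocyte markers were abundant in every library: 6 suprabasal markers summed to between 58868 and 196218 normalized counts and 5 basal markers to between 40361 and 83869. Chuk itself averaged 1007 ± 147 normalized counts in WT, 990.4 ± 93.3 in N-IKKα and 889 ± 26.3 in C-IKKα (SD, n = 6 each). It was not called in any comparison (smallest limma adjusted p = 0.463), and whether the table's Chuk row counts the exogenous copy is not known. The libraries fell into 2 clusters by 24 hair shaft and inner root sheath genes: their mean log2 value was 9.70 to 11.9 in 6 libraries, here called growing hair, and 1.80 to 4.96 in 12, here called resting hair. The growing-hair libraries were WT 1 and 4, N-IKKα 8, 9 and 11, and C-IKKα 14. All 6 of them read as female by the Y-linked gene Ddx3y, whereas 8 of the 12 resting-hair libraries read as male, so hair state and sex can be told apart only among the 10 libraries that read as female.

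Per kilobase of annotated exon, the aspartic protease Asprv1 was the most abundant of the 10 genes, at 4297 ± 945 normalized counts per kilobase in WT (SD, n = 6). Klk7, the chymotrypsin-like kallikrein, followed at 2874 ± 733 per kilobase, and the inhibitor Spink5 at 1391 ± 348. Klk5 stood at 578 ± 132 and Casp14 at 578 ± 272 per kilobase. These values pool 2 growing-hair and 4 resting-hair WT libraries, so they do not give the order of genes within a hair state. In WT, Casp14 averaged 2211 normalized counts with growing hair and 969 with resting hair, whereas Klk5 averaged 592 and 863. St14 (145 ± 91.4), Klk6 (142 ± 155) and Klk8 (134 ± 28.4) were lowest among the 8 measured genes, on values that pool the states in the same way. In N-IKKα the order of the pooled means was the same for the 3 most abundant genes. Asprv1 was at 2898 ± 536, Klk7 at 2553 ± 509 and Spink5 at 1180 ± 496 per kilobase. Between the 3 growing-hair and 3 resting-hair N-IKKα libraries, the means of Asprv1 and Klk7 moved in opposite directions. Asprv1 averaged 3984 normalized counts with growing hair and 4984 with resting hair, and Klk7 averaged 5310 and 4367. C-IKKα had Asprv1 at 4076 ± 787, Klk7 at 2257 ± 297 and Spink5 at 1415 ± 310 per kilobase.

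**Figure D1:**
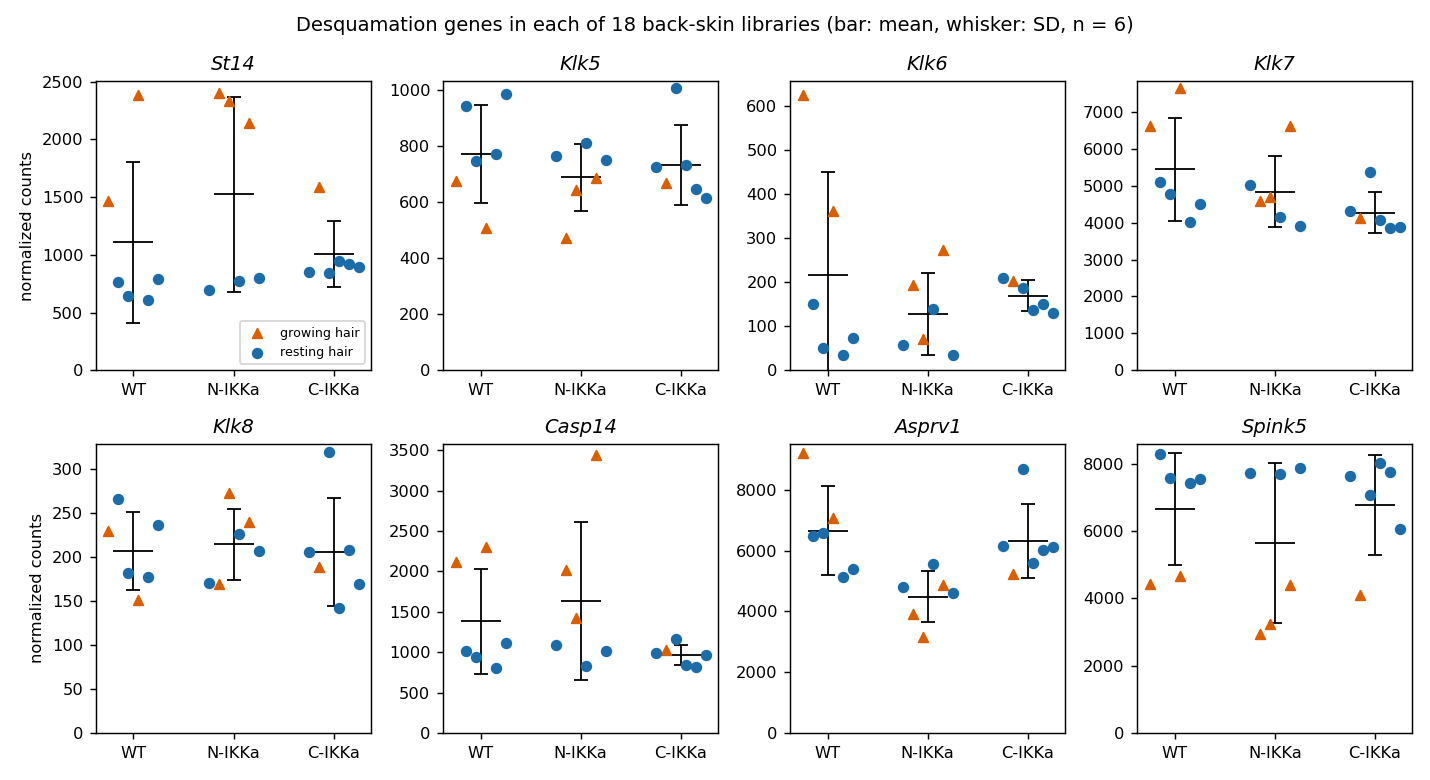
Normalized counts (vertical axes) of the 8 measured genes in each of 18 libraries by group (horizontal axes). Orange triangles are growing-hair and blue circles resting-hair libraries, and bars and whiskers show the mean and SD of 6 libraries. St14 triangles lie at 1471 and above while its circles end at 947, and Spink5 triangles end at 4666 while its circles start at 6053.

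The widest separations among these genes ran along the hair state. St14, the membrane-anchored protease matriptase, stood at 1471, 2237 and 2407 normalized counts in growing-hair skin (lowest, median and highest of 6) and at 609, 795 and 947 in resting-hair skin (of 12). Every growing-hair library was thus above every resting-hair library, and the medians were 2.81-fold apart. Spink5, the inhibitor, ran the other way, with 2939.9, 4251 and 4666 in growing-hair skin against 6053, 7667 and 8286 in resting-hair skin. No library of either state reached into the range of the other, and the resting median was 1.80-fold higher. Among all tested genes, 8.45% were wholly higher and 5.25% wholly lower in growing hair (13.7% in all), so 1 of 8 measured genes in each direction lies near the background. The states were read from the libraries themselves, so these values are a description without a test.

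The states overlap for neither gene over all 18 libraries, so subsets by sex or genotype cannot overlap either and are given as values alone. In the 4 resting-hair libraries that read as female, WT 5, WT 2, N-IKKα 10 and C-IKKα 18, St14 was 609, 762, 775 and 894, and Spink5 was 7427, 8286, 7697 and 6053. In WT, St14 was 1471 and 2381 with growing hair and at most 794 without, and in N-IKKα it was 2143, 2331 and 2407 against at most 797. The single growing-hair C-IKKα library had 1585 against at most 947. Spink5 with growing hair was 4427 and 4666 in WT (at least 7427 without), 2939.9, 3237 and 4401 in N-IKKα (at least 7697) and 4101 in C-IKKα (at least 6053). With 10 in place of 8 as the limit on the mean log2 marker value, N-IKKα 9 and C-IKKα 14 count as resting, and neither St14 nor Spink5 is then free of overlap.

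The log2 ratio of each of 5 proteases to Spink5 was computed in every library, a choice made after the values were seen. Because Spink5 was itself wholly lower in growing-hair skin, ratios to it are moved apart for any gene: of the other 17666 tested genes, 50% had a ratio to Spink5 wholly higher and 0.0283% wholly lower in growing hair. The ratios of St14, Klk7 and Casp14 were wholly higher, 3 of 5, which lies near that background, and those of Klk5 and Asprv1 overlapped. For Klk7 the ratio was between 0.01 and 0.71 in growing-hair skin, so Klk7 counts were above those of its inhibitor in all 6, and between −1.01 and −0.39 in resting-hair skin, where Spink5 counts were higher in all 12. These are ratios of normalized counts, not corrected for gene length, so their level carries less than their difference between libraries.

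**Figure D2:**
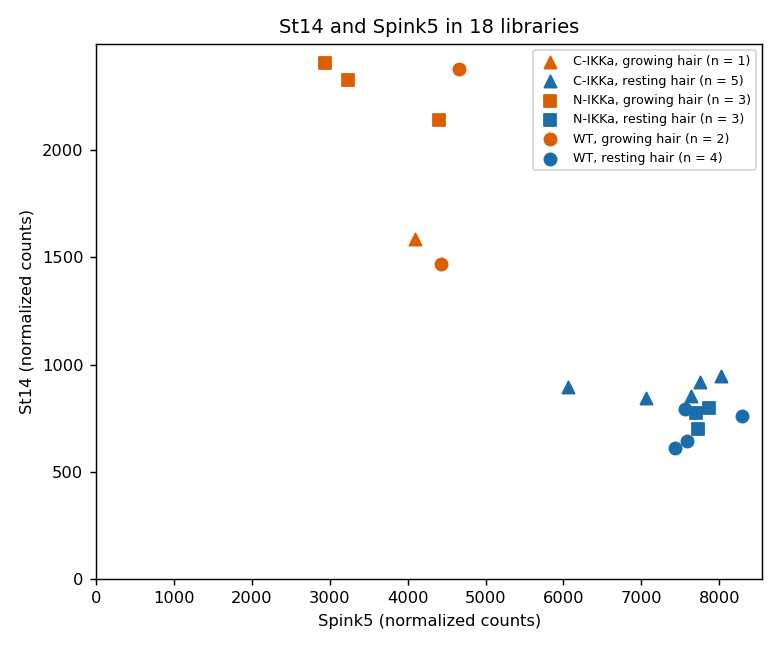
Normalized counts of Spink5 (horizontal axis) and St14 (vertical axis) in 18 libraries, orange for growing and blue for resting hair, with circles for WT, squares for N-IKKα and triangles for C-IKKα. The 6 growing-hair libraries lie at upper left (Spink5 up to 4666, St14 from 1471) and the 12 resting-hair libraries at lower right (Spink5 from 6053, St14 up to 947).

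The sequences of Klk5, Klk7 and Klk8 promoters are shown because these 3 secreted kallikreins of the cluster on mouse chromosome 7 include 2, Klk7 and Klk8, with which Klk5 varied in resting-hair skin. Each runs from 250 bases before to 50 bases after the annotated start, on the strand of transcription, from RefSeq on build GRCm38.p6. Klk8 is chr7:43797327-43797626, Klk7 is chr7:43811044-43811343 and Klk5 is chr7:43842019-43842318, all on the plus strand. Capitals mark matches on either strand to any of 6 motifs. These were the TATA box letters searched as TATAAA, the AP-1 motif TGANTCA, an NF-kB motif of 10 letters, the E-box CANNTG, the KLF-type motif CCNCNCCC and the GATA-type letters searched as AGATAA.
Klk8: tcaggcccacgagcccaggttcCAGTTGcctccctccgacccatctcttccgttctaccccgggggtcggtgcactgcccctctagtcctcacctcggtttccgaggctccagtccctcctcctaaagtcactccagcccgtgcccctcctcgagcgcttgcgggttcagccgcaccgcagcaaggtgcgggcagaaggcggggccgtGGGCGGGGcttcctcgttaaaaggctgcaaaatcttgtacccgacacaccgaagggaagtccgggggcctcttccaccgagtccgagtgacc
Klk7: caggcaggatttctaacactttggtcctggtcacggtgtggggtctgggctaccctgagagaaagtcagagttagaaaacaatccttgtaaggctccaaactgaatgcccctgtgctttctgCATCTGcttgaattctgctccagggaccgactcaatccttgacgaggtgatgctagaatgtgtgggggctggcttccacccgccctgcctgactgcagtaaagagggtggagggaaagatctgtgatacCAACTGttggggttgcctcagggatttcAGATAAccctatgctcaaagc
Klk5: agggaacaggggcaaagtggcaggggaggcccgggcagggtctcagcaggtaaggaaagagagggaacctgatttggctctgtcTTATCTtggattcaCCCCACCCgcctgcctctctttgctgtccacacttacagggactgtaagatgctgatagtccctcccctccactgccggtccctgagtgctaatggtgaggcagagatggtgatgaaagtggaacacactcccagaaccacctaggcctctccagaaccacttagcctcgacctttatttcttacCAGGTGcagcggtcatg
Klk5 held 1 E-box, 1 KLF-type and 1 GATA-type match, Klk7 held 2 E-box and 1 GATA-type matches, and Klk8 held 1 E-box and 1 KLF-type match. Over all 32851 promoters of the same length, 72.3% held an E-box match, 49.5% a KLF-type match and 11.2% a GATA-type match. TATAAA (13.6% of all promoters), TGANTCA (7.81%) and the NF-kB motif (1.47%) were in none of the promoter windows found for 8 of the 10 genes. St14 and Spink5 promoters are not shown. A match is only a match of letters.

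Klk7, which cuts corneodesmosin, stood at 4134, 5654 and 7648 normalized counts in growing-hair skin (lowest, median and highest of 6) and at 3859, 4245 and 5372 in resting-hair skin. Its 3 highest libraries, WT 4, N-IKKα 11 and WT 1, all had growing hair, and the other 3 growing-hair libraries lay inside the resting range. Klk5, the trypsin-like starter of the cascade, stood at 474, 657 and 688 in growing-hair skin and at 616, 759 and 1007 in resting-hair skin, with 2 growing-hair libraries below all resting ones. Klk8, a kallikrein of the granular layer, did not separate, at 151, 209 and 273 against 142, 206 and 319. Of its exon length, 24.8% is shared with a transcript on the opposite strand, 2310002F09Rik, whose own values reached 821, and whether counting used the strand is not given in the sources used here.

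In resting-hair skin the log2 values of Klk5 correlated with those of Klk7 (Pearson r = 0.72, Spearman rho = 0.69, n = 12 libraries of 3 genotypes) and of Klk8 (r = 0.74, rho = 0.69). Without C-IKKα 15 and WT 6, the libraries farthest from the Klk5 median, r was 0.66 with Klk7 and 0.55 with Klk8. Over the 6 growing-hair libraries r was −0.04 for Klk5 and Klk7 and 0.77 for Klk5 and Klk8. Klk7 varied with Casp14 in both states (r = 0.68 over 12 resting-hair and 0.77 over 6 growing-hair libraries, and 0.55 over 10 resting-hair libraries without C-IKKα 15 and WT 2). Klk6 did so with Asprv1 (0.64 and 0.94), whereas Klk6 and St14 had 0.72 in resting-hair and −0.50 in growing-hair libraries. The pairs named were picked from all pairs of the 8 measured genes. These are descriptions over libraries that share their scaling and their tissue composition.

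Casp14, the caspase of terminal differentiation, was 1023, 2070.4 and 3442.5 in growing-hair skin and 805, 978 and 1163 in resting-hair skin (lowest, median and highest). In 5 of the 6 growing-hair libraries it lay above all 12 resting-hair libraries, and the exception was C-IKKα 14 at 1023. Among libraries that read as female the states did not overlap, since resting-hair values then ended at 1020.1. In that smaller comparison 13% of tested genes were wholly higher and 9.65% wholly lower in growing hair, 22.6% in all. Its promoter, chr10:78718244-78718543 on the minus strand of GRCm38.p6, is shown because all but 1 growing-hair library stood apart for this gene, with capitals as above.
Casp14: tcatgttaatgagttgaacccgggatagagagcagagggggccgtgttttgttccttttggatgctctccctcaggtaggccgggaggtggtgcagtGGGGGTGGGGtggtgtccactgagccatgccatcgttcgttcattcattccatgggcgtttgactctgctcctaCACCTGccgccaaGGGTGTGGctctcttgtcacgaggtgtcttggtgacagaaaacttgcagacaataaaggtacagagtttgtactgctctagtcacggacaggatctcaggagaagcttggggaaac
It held 3 KLF-type matches, of which a pair overlaps, and 1 E-box match, and none of the other 4 motifs.

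Klk6, a kallikrein of low abundance here, was the most variable: 70.0, 238 and 624.9 in growing-hair skin against 33.8, 134 and 210.1 in resting-hair skin. The 2 highest libraries were WT 1 at 624.9 and WT 4 at 361. In WT 1, S100a9, a gene of stressed epidermis and of neutrophils, was also high, at 1072 normalized counts (at most 55.1 in the other 17 libraries). Krt16, a keratin of stressed epidermis, was 1351 there and was higher only in C-IKKα 15, at 1445. The 5 neutrophil markers summed to 459 in WT 1 and to at most 99.1 in the other 17 libraries, with Cxcr2 at 365 and Mmp8 at 85.7 in WT 1, and Ly6g, at 5.04 there, was at 0 in all others. Cxcr2 thus made up most of the WT 1 sum. The remaining markers, Mpo and Elane, were at most 3.26 and 1.01 in growing-hair libraries, WT 1 among them. In resting-hair libraries Mpo and Elane reached 12.0 and 7.34. Over the 9 markers of wounded or stressed keratinocytes the summed level was 9750.4 to 21421 in growing-hair and 6276 to 11296 in resting-hair libraries. Krt17 made up most of each sum, at 8478 to 15972 and 5523 to 8848. WT 4 had the highest sum, yet S100a9 was 21.7, Krt16 was 333 and the neutrophil markers summed to 38.8 there. The part of stressed keratinocytes and of neutrophils in the Klk6 values was not tested. For Asprv1 the growing-hair range (3161 to 9214) enclosed the resting-hair range (4614 to 8684).

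The other genes of the pathway were read by hair state in the same libraries. Over all tested genes, 8.45% were wholly higher and 5.25% wholly lower in growing hair (13.7% in all). These shares are the background for each list below. Of 14 tested genes listed as inhibitors, 3 did not overlap between the states. Spint1 (HAI-1, the membrane-bound inhibitor of matriptase) was wholly higher in growing-hair skin, with a median of 1041 against 320 (resting range 255 to 399), the same direction as St14. Serpina12 (median 639 against 1528) and Serpinb7 (1328 against 3127) were wholly lower, the same direction as Spink5. Of 18 tested proteases, the proprotein convertase Furin (1338 against 968) and the transmembrane protease Tmprss11e (711 against 165) were wholly higher. These 2 of 18 lie near the background of 8.45%. Prss8 (prostasin, a partner of matriptase) overlapped, at 370.0 to 827 against 295 to 407.

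The next 2 lists have the same background of 8.45% wholly higher and 5.25% wholly lower. Among 13 tested corneodesmosome and filaggrin genes, Flg2 (filaggrin-2, median 12854 against 25761) and Hal (histidase, 1860 against 3627) were wholly lower in growing-hair skin. The deiminases Padi1 and Padi3 were wholly higher, with medians of 1369 against 4.16 and of 5859 against 11.2. Their log2 differences of 7.76 and 8.77 lay near the median of 8.63 over the 23 tested hair shaft and inner root sheath genes. Flg itself overlapped, at 1723 to 5669 against 1386 to 2627. The part of hair follicle cells in the Padi1 and Padi3 values was not tested. Cdsn, the gene of corneodesmosin, which KLK5 and KLK7 cut, overlapped (4429 to 10007 against 4943 to 8602). Of 11 keratin and envelope genes, Krt10 (20522 against 43726), Krt77 (29506 against 57543) and Krt15 (7914 against 16357) were wholly lower and Tgm3, a transglutaminase also of the hair follicle (783 against 32.7), was wholly higher. The summed suprabasal markers were 58868 to 104729 in growing-hair libraries against 121644 to 196218 in resting-hair libraries, and none of these 6 genes was at 0. The 6 T cell markers summed to 131 to 267 against 451 to 652, the 5 fibroblast markers to 25744 to 65005 against 37292 to 393274, and the 5 melanocyte markers to 4083 to 13064 against 338 to 2122. Of these 16 genes Cd8a alone was listed at 0 in any library, in 3 growing-hair ones. The fibroblast sums of resting-hair libraries that read as female lay inside the growing-hair range. These were 37292 (WT 5), 44575 (C-IKKα 18), 62840 (N-IKKα 10) and 62860 (WT 2). Resting-hair libraries that read as male had 179482 to 393274, so within resting-hair skin the sums split by the sex read. Dcn was the only 1 of the 5 fibroblast markers to separate by hair state. It was wholly lower in growing-hair libraries, at 6600 to 11283 against 15194 to 31661. The part of these cell types in the Spink5 and St14 values was not tested. On the log2 scale of group means, Spink5 differed by −0.95, and all tested genes had a median of −0.01. The 6 suprabasal markers had a median of −1.11 but were not uniform. They ran from −1.21 (Lor) to 0.21 (Dsc1), with Dsg1a at −0.37.

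The genotype comparisons asked whether IKKα placed in the nucleus or in the cytoplasm of keratinocytes changed these genes. With 6 libraries a group and limma on all 17667 tested genes (called at an adjusted p below 0.05), none of the 8 measured genes was called in any of the 3 comparisons. The background was 61 genes (0.345%) for C-IKKα against WT, 1 gene (0.00566%) for N-IKKα against WT and 76 genes (0.43%) for N-IKKα against C-IKKα. At an unadjusted p below 0.05, 1 of the 8 passed in each comparison, against 5.73%, 4.14% and 11.7% of all tested genes. On the recovered reads, edgeR called 0 of the 8 in each comparison, against 0.311%, 0.00566% and 0.34% of all genes in the same order, and DESeq2 called 0 of the 8, against 0.838%, 0.0113% and 1.06%. Groups overlapped for every gene, where non-overlap was found for 0.838% (higher) and 0.147% (lower) of all genes in C-IKKα against WT, 0.0849% and 0.0396% in N-IKKα against WT, and 0.311% and 0.736% in N-IKKα against C-IKKα. The median log2 fold change of the 8 genes was −0.04, −0.15 and −0.0036 in these comparisons, against 0.00028, 0.0057 and 0.0061 over all tested genes. The first 2 comparisons share the WT mice.

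St14 was 609, 778 and 2381 in WT, 699, 1470.1 and 2407 in N-IKKα and 845, 908 and 1585 in C-IKKα (lowest, median and highest of 6). The ranges lay over each other, and every library above 947 had growing hair (2 in WT, 3 in N-IKKα and 1 in C-IKKα). Its log2 fold change was 0.02 (SE 0.38) in C-IKKα and 0.44 (SE 0.38) in N-IKKα, each against WT (limma adjusted p = 0.999 and 0.88). The 95% limits of −0.77 to 0.81 and −0.35 to 1.23 leave room for differences in either direction.

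Klk7 was 4029, 4939.9 and 7648 in WT, 3912, 4649 and 6634 in N-IKKα and 3859, 4104 and 5372 in C-IKKα. Its log2 fold change of −0.32 (SE 0.15, 95% limits −0.64 to −0.0013) in C-IKKα against WT had an unadjusted p of 0.0492 and a limma adjusted p of 0.872. Without the growing-hair libraries it was −0.10. Klk5 (508, 759.7 and 986 in WT, 474, 719.7 and 811 in N-IKKα, 616, 698 and 1007 in C-IKKα) and Klk8 (151, 205 and 266, then 169.6, 216 and 273, then 142, 197 and 319) had log2 fold changes between −0.15 and 0.08 over the 3 comparisons. For Klk5 the 95% limits against WT were −0.41 to 0.28 in C-IKKα and −0.50 to 0.19 in N-IKKα.

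Klk6 was 33.9, 112 and 624.9 in WT, 33.8, 105 and 272 in N-IKKα, and 130.2, 169 and 210.1 in C-IKKα. The WT range was the widest, and the C-IKKα libraries were the closest together and lay inside it. The log2 fold change in C-IKKα against WT was 0.38 (SE 0.62) by limma and −0.34 by edgeR, so its direction depended on the method, and without WT 1 the limma value was 0.84. Against C-IKKα, N-IKKα differed by −0.73 (SE 0.62, limma adjusted p = 0.554).

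Asprv1 was 5115, 6537 and 9214 in WT, 3161, 4703 and 5546 in N-IKKα, and 5238, 6083 and 8684 in C-IKKα. The N-IKKα libraries lay lowest, yet their highest value was above the lowest of both other groups. N-IKKα differed from C-IKKα by −0.49 (log2, SE 0.16, 95% limits −0.82 to −0.17, limma adjusted p = 0.278) and from WT by −0.56 (SE 0.16, limma adjusted p = 0.88). In growing-hair libraries Asprv1 was 9214 and 7076 in WT against 3929, 3161 and 4860 (N-IKKα 8, 9 and 11) and 5238 (C-IKKα 14). In resting-hair libraries it was 5115 to 6584 in WT against 4792, 5546 and 4614 in N-IKKα, where the groups overlapped. The difference between N-IKKα and WT was −0.24 (SE 0.14, limma adjusted p = 0.795) in resting-hair skin alone. Against C-IKKα it was −0.37 (SE 0.14, limma adjusted p = 0.539), with the highest N-IKKα library at 5546 and the lowest of 5 C-IKKα libraries at 5602, a separation in this direction that 2.81% of tested genes showed.

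Casp14 was 805, 1066 and 2305 in WT, 826, 1256 and 3442.5 in N-IKKα, and 817, 978 and 1163 in C-IKKα. The log2 difference between N-IKKα and C-IKKα was 0.59 (SE 0.31, limma adjusted p = 0.447) over all libraries and 0.04 in resting-hair skin. Spink5 was 4427, 7490.2 and 8286 in WT, 2939.9, 6049 and 7867 in N-IKKα, and 4101, 7350.2 and 8017 in C-IKKα. Its log2 fold change was −0.32 (SE 0.27) in N-IKKα against WT and 0.03 (SE 0.27) in C-IKKα against WT, and in resting-hair skin 0.01 (SE 0.10) and −0.08 (SE 0.09). Within resting-hair skin the 95% limits of the N-IKKα value were −0.20 to 0.22.

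**Figure D3:**
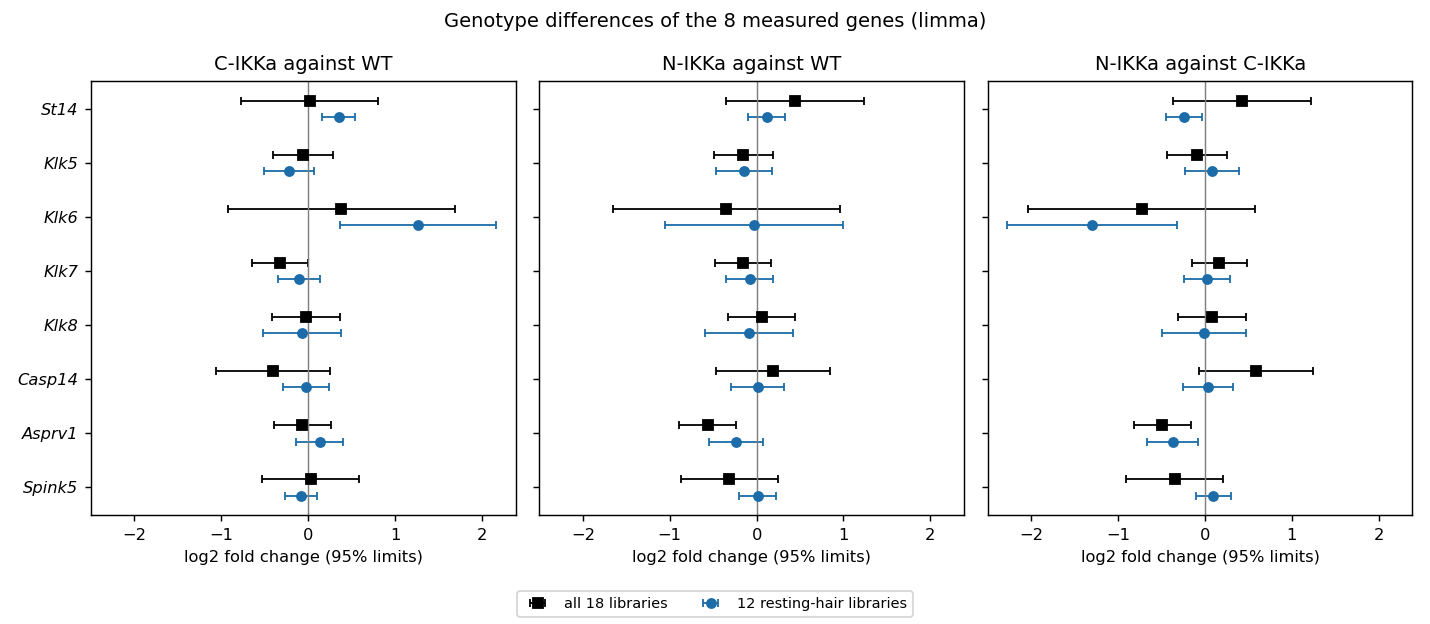
Log2 fold changes (horizontal axes) of the 8 measured genes in the 3 comparisons, as limma estimates with 95% limits, for all 18 libraries (black squares) and for the 12 resting-hair libraries (blue circles). The limits narrow in resting-hair skin for every gene but Klk8, for which they widen. The resting-hair St14 estimate for C-IKKα against WT is 0.35 with limits of 0.16 to 0.54.

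Among resting-hair libraries alone (4 WT, 3 N-IKKα, 5 C-IKKα), limma again called none of the 8 genes, against 0.923% of genes in C-IKKα against WT, 0.0113% in N-IKKα against WT and 0.289% in N-IKKα against C-IKKα. St14 was 609, 643, 762 and 794 in WT, 699, 775 and 797 in N-IKKα, and 845, 855, 894, 921 and 947 in C-IKKα. All 5 C-IKKα libraries lay above all 7 others, a separation that 2.54% of genes showed against WT and 2.81% against N-IKKα. No other of the 8 genes separated from WT, where 1.4% of all genes were wholly lower in C-IKKα and 2.93% wholly higher and 4.14% wholly lower in N-IKKα, and none was wholly higher in N-IKKα than in C-IKKα (2.39% of all genes). St14 and Asprv1 were thus the 2 of 8 wholly lower in N-IKKα than in C-IKKα. The log2 fold change of St14 was 0.35 (SE 0.09, 95% limits 0.16 to 0.54, limma adjusted p = 0.09) against WT, which did not pass the threshold, and that of N-IKKα against C-IKKα was −0.24 (SE 0.10, limma adjusted p = 0.622). Of the 5 C-IKKα libraries 4 read as male, and among libraries that read as male St14 was 643 and 794 in WT, 699 and 797 in N-IKKα, and 845 to 947 in C-IKKα. Among those that read as female it was 609 and 762 in WT, 775 in N-IKKα 10 and 894 in C-IKKα 18. Of the resting-hair libraries, C-IKKα 18 had the highest mean log2 hair marker value (4.96) and the lowest Spink5 (6053). The part of this hair signal in its St14 value was not tested.

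Klk6 in resting-hair skin was 33.9, 50.03, 73.4 and 150.2 in WT, 33.8, 56.3 and 139 in N-IKKα, and 130.2, 137, 151, 186 and 210.1 in C-IKKα. WT 2 and N-IKKα 10 reached into the C-IKKα range, and the other 5 libraries lay below it. The log2 difference was 1.27 (SE 0.42, limma adjusted p = 0.216) in C-IKKα against WT and −1.30 (SE 0.45, limma adjusted p = 0.495) in N-IKKα against C-IKKα. Of the 9 markers of wounded or stressed keratinocytes in the same libraries, Krt16 (102 to 119 in WT, 68.3 to 184 in N-IKKα and 702 to 1445 in C-IKKα) and Stfa3 (0 to 3.57, 0 to 9.23 and 11.4 to 29.9) lay wholly higher in C-IKKα than in both other groups. The other 7 overlapped with both, among them Krt6a (588 to 960 in WT, 745 to 1368 in N-IKKα and 639 to 1569 in C-IKKα). The 9 summed to 6276 to 9176, 8977 to 9703 and 7875 to 11296, and Krt17 made up most of each sum. The part of stressed keratinocytes in the Klk6 values was not tested. Klk5, Klk7, Klk8, Casp14 and Spink5 differed by between −0.22 and 0.10 in all 3 resting-hair comparisons.

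**Figure D4:**
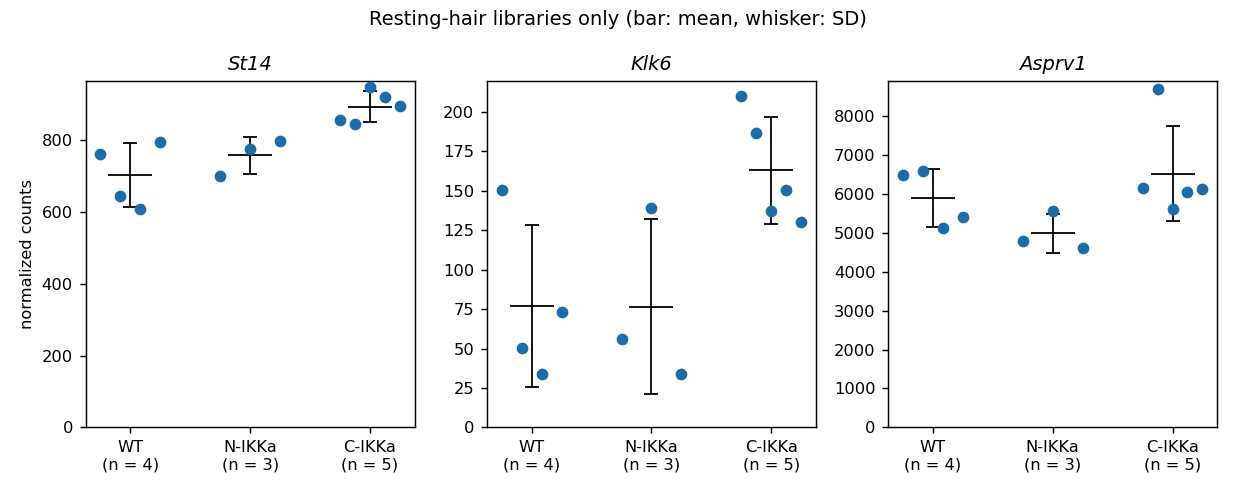
Normalized counts (vertical axes) of St14, Klk6 and Asprv1 in the 12 resting-hair libraries by group (horizontal axes), with bars and whiskers for the mean and SD. The 5 C-IKKα libraries lie above the other 7 for St14 (845 to 947 against 609 to 797), and the 3 N-IKKα libraries end at 5546 for Asprv1 where C-IKKα starts at 5602.

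Klk10 and Klk11, epidermal kallikreins that lie between Klk9 and Klk12 in the kallikrein cluster, were listed at 0 in all 18 libraries. A listed 0 allows up to 3 reads, or between 2.45 and 3.61 normalized counts in these libraries, and that limit covers counting error only. Klk9, Klk12 and Klk13 were at 0 as well, so the 5 neighbouring genes from Klk13 to Klk9 formed an unbroken block at 0 between Klk14 (118 reads in all libraries together) and Klk8 (3805 reads). Of 21876 protein-coding genes matched to the annotation, 17.9% were at 0 everywhere. They included Hrnr and Tchh, the latter a gene of the inner root sheath, also in the growing-hair libraries, so a listed 0 is given here as listed and no fold or test was computed.

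The other kallikreins gave no further signal: none of Klk1, Klk4, Klk9, Klk12, Klk13, Klk14 and Klk15 passed the filter, and the highest value was 12.1 normalized counts (Klk14). Of 18 tested proteases outside the family, none was called by limma in any comparison. The smallest p belonged to Tmprss13 (−0.34, adjusted p = 0.616) and Ctsl (−0.44, 0.836) in C-IKKα against WT, to Tmprss13 (−0.28) and Ctsd (−0.37, both 0.88) in N-IKKα against WT, and to Pcsk6 (0.22, 0.416) and Ctsh (−0.32, 0.423) in N-IKKα against C-IKKα. Their median log2 fold changes were −0.18, −0.11 and 0.09.

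Of 14 tested genes listed as inhibitors, none was called by limma either. Serpinb5 (maspin), a serpin whose inhibitory activity was not examined here, came nearest. It was at 5816 ± 138 in WT, 5685 ± 202 in N-IKKα and 4863 ± 290 in C-IKKα (SD, n = 6). Its log2 difference was −0.26 (SE 0.06, limma adjusted p = 0.0693) in C-IKKα against WT and 0.23 (limma adjusted p = 0.122) in N-IKKα against C-IKKα. The other genes with the smallest p were Spint2 in C-IKKα against WT (0.19, limma adjusted p = 0.883), Serpinb2 (−0.71) and Spint2 (0.17, both 0.88) in N-IKKα against WT, and Cst3 in N-IKKα against C-IKKα (−0.48, 0.441). The list medians were −0.0079, −0.14 and −0.31 in the 3 comparisons, in the order given above.

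None of 13 tested corneodesmosome and filaggrin genes was called by limma. Flg, the filaggrin gene that Asprv1 and Casp14 act on, averaged 2707 ± 1462 in WT, 2666 ± 870.5 in N-IKKα and 1772 ± 445 in C-IKKα. That is a log2 difference of −0.52 in C-IKKα against WT (limma adjusted p = 0.874) and 0.57 in N-IKKα against C-IKKα (0.418). Dsc1, a desmosomal cadherin, differed by −0.25 and 0.21 in the same comparisons, and in N-IKKα against WT the smallest p belonged to F2rl1 (−0.16) and Flg2 (−0.37). Medians over the list were −0.11, −0.04 and 0.07. Of 11 keratin and envelope genes, 1 passed the test: Krt2, a late suprabasal keratin, rose in C-IKKα from 23.9 ± 7.91 to 93.0 ± 51.3 (log2 1.79, SE 0.35, limma adjusted p = 0.0244). In N-IKKα it stood at 46.8 ± 15.0 (0.94 against WT, limma adjusted p = 0.88). Ivl differed by −0.53 in C-IKKα against WT, Krt14 by −0.25 in N-IKKα against WT, and Krt5 by −0.27 in N-IKKα against C-IKKα, and none of these passed.

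The genes whose log2 values followed each of the 8 most closely over the 12 resting-hair libraries were taken from 12408 genes with a mean of at least 50, as a description over libraries of 3 genotypes and without a test. For Klk5 these were the suprabasal keratin Krt77 (r = 0.93, and 0.80 over the 6 growing-hair libraries) and Fut2 (0.91 and 0.36). Klk7 was followed by Mif4gd (0.94 and −0.49) and Lypd5 (0.92 and 0.61), and Klk6 by Endou (0.93 and 0.35) and Apln (0.92 and −0.59). Asprv1 ran with Trex2 (0.94 and 0.74) and Pebp1 (0.90 and −0.45). Krt77 and Trex2 were thus the only ones of the 16 with r above 0.7 in growing-hair skin too.

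Klk8 had the weakest likeness, with Pygo2 (0.82 and 0.61) and Ano8 (0.82 and 0.17). Spink5 was followed by Dhrs11 (0.87 and 0.54) and Cdh13 (0.86 and 0.45), Casp14 by Dda1 (0.90 and −0.85) and Gramd3 (0.88 and 0.58), and St14 by Atp13a2 (0.95 and 0.35) and Septin9 (0.94 and −0.63). Of the 16 genes, 5 had a negative r in growing-hair skin.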

How the data were processed

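RNA of whole back skin was sequenced from 18 mice, and the deposited table gave 1 normalized count (a signal per gene and library) for 55357 genes. Counting used featureCounts and the genome build GRCm39, per the submitters' processing notes. Aligner, annotation release, strand setting and scaling tool are not given in the sources used here. Within a tolerance of 0.001 reads, 100% of the non-zero deposited values of every library were multiples of 1 step, so the authors' values were read as gene counts divided by 1 size factor per library, and reads were recovered by dividing by the step. No pair of libraries in a group were copies (smallest chi-square per gene 5.61). The labels give each library its own mouse.

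Values were analysed as log2(normalized count + 1) with limma 3.58.1 in R 4.3.3, with 1 mean per group over all 18 libraries, a mean-variance trend and 15 residual degrees of freedom. Genes with at least 10 normalized counts in at least 6 libraries were tested (17667), two-sided, and p-values were adjusted by Benjamini-Hochberg within each of 3 comparisons, with calls at an adjusted p below 0.05. The fit was first tested on simulated data with known changes. Klk10 and Klk11 were to have an exact permutation test, which was not run because both were 0 throughout.

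A library was called growing hair where the mean log2 value of 24 hair shaft and inner root sheath genes (25 listed, 1 without a row) exceeded 8, and was read as male where Ddx3y exceeded 500. Exon lengths, overlaps and gene order came from GENCODE annotation of the earlier build GRCm38, matched by gene identifier for 52081 genes, and promoters from RefSeq (GRCm38.p6). As alternatives, the pseudocount was set to 0.5 and to 5 and the filter was dropped or raised to 50, and results were recomputed with TMM scaling, edgeR 4.0.16 and DESeq2 1.42.0 on recovered reads, covariates for sex and hair markers, resting-hair libraries only, the compared groups alone and each library left out.

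The genes described, the gene lists and the hair-state rule were chosen with earlier results of these data known. Named genes were the 10 genes, for each the 2 others most correlated with it over resting-hair libraries, Chuk, and of each pathway list up to 4 called genes or else the 2 with the smallest p in each comparison. Further genes were named with their values known.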

Additional observations from a re-analysis of the deposited data

Results flagged for a closer look

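In 5 of 24 gene-by-group sets of 6 libraries, the highest library stood apart from the other 5 by more than Dixon's 95% limit (0.625 of the whole range), where chance flags about 1 in 20 groups, or 1.2 of 24. C-IKKα 15 was that library for 4 genes, so those 4 flags share 1 library and do not count as separate events beside the 1.2. It had 1007 normalized counts of Klk5 (616 to 733 in the other C-IKKα libraries), 5372 of Klk7 (3859 to 4331), 319 of Klk8 (142 to 208) and 8684 of Asprv1 (5238 to 6142). The same library had the highest summed markers of suprabasal keratinocytes (196218) and basal keratinocytes (83869) of all 18. It also had Krt6b at 667 (at most 16.5 in the other C-IKKα libraries), Sprr1b at 420 (at most 15.4), and neutrophil markers that summed to 99.1 (at most 25.9), of which Cxcr2 was 81.7. Of the 9 stressed-keratinocyte markers, Krt6a, Krt16, S100a9 and Sprr2d were also highest of the group there. Krt17 (6993, up to 9700 in the others), S100a8 (23.9, up to 27.8) and Stfa3 (24.8, up to 29.9) were not. The 9 summed to 11296 in C-IKKα 15 and to 11564 in C-IKKα 14, of which Krt17 was 6993 and 9700. The part of these cells in the values was not tested. C-IKKα 14, the only growing-hair library of its group, had 1585 normalized counts of St14 against 845 to 947 in the other 5.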

How the results depend on the processing

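None of the 8 measured genes was called under any of the alternatives in any comparison, and of 552 recomputed fold changes 512 kept their direction. Over all genes, calls in C-IKKα against WT numbered 38 with a filter of 50, 148 with DESeq2, 155 with the hair marker covariate and 163 in resting-hair libraries (61 as reported), and 33 (without C-IKKα 13) to 73 (without C-IKKα 15) with 1 library left out. In N-IKKα against WT they numbered 2 with no filter, 0 with a filter of 50, 2 with DESeq2, 2 in resting-hair libraries, 0 with the compared groups alone and 1 to 2 with 1 library left out. In N-IKKα against C-IKKα they numbered 47 with a filter of 50, 188 with DESeq2, 161 with the hair marker covariate and 39 (without C-IKKα 17) to 96 (without N-IKKα 10) with 1 library left out. The cause was not tested.

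Directions turned for differences that were not called, some of them among the larger ones of these genes. In C-IKKα against WT, Klk6 was −0.34 with edgeR and −0.35 with DESeq2, St14 −0.13 and −0.14, Spink5 −0.17 with the sex covariate, −0.083 with the hair marker covariate and −0.084 in resting-hair libraries, and Asprv1 0.13 in resting-hair libraries. In N-IKKα against WT, resting-hair libraries gave Klk8 −0.085 and Spink5 0.011. In N-IKKα against C-IKKα, they gave Klk5 0.078, Klk8 −0.013, Spink5 0.10 and St14 −0.24, and the hair marker covariate gave Klk5 0.013. With 1 library left out, C-IKKα against WT ranged from −0.18 to 0.016 for Klk5, −0.16 to 0.071 for Klk8, −0.077 to 0.17 for Spink5, −0.16 to 0.031 for Asprv1 and −0.12 to 0.28 for St14. N-IKKα against WT ranged from −0.73 to 0.11 for Klk6, −0.027 to 0.14 for Klk8 and −0.065 to 0.36 for Casp14, and N-IKKα against C-IKKα from −0.14 to 0.013 for Klk5 and −0.013 to 0.22 for Klk8.

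For the hair states, a limit of 10 in place of 8 left Casp14 wholly higher and no gene wholly lower, and libraries that read as female gave 2 genes wholly higher, St14 and Casp14. That last set and TMM scaling of the states were added after the data were seen, and TMM changed neither count. TMM moved the median of all genes by −0.02 to 0.01. No paired analysis was possible because the labels number the mice 1 to 18 across the groups and no number is shared. A listed 0 of Klk10 and Klk11 allows up to 3 reads per library, and whether depth is what put them at 0 was not tested.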
